A study of Mus musculus with 24 samples.

Results

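Total RNA of postnatal day 9 mouse brain was compared between animals without Celf6 (knockout, KO) and wild-type animals (WT). The comparison took every total RNA library of the series by its label except the repeat sequencing runs and WT replicate 4, which its label calls an outlier, and so used 9 of the 24 samples. The other samples are mainly ribosome-bound RNA of serotonin cells, obtained by translating ribosome affinity purification (TRAP). The KO group held 5 libraries (replicates 1 to 3 from sequencing run 1, and 4 and 5 from run 2). The WT group held replicates 1, 2 and 3 from run 1 and replicate 5 from run 2, and replicates 2 and 3 were summed for the reason given below, so that n = 5 KO and n = 3 WT. The tissue was the part of the brain just behind the thalamus, with the cortex removed, and each library was the input of a TRAP experiment that used a TRAP allele for serotonin cells. The labels name no strain, sex or litter and do not say which part of Celf6 the knockout removes.

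CELF proteins bind GU-rich stretches of RNA and act on splicing in the nucleus and on translation and decay of messenger RNA in the cytoplasm. CELF6 is found mainly in the nervous system, with high levels in monoaminergic and neuropeptide neurons. Total RNA holds the transcripts of every cell type of the dissected tissue, so a change inside a rare cell type is diluted in it.

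The libraries held 3390423 to 6861963 counts, and 13912 to 15892 of the 24062 genes in the files had a count. The libraries labelled WT 2 and WT 3 differed by a chi-square of 1.34 per gene, less than repeat runs of 1 library (2.45 and 2.58), whereas every other pair within a genotype differed by at least 32.4. They were therefore counted as 1 sample, WT 2/3. Among the 28 pairs of the 8 samples, the closest was KO 2 with the library labelled WT 2/3 (r = 0.9045 over log2 CPM, the count of a gene scaled to the size of its library). Pairs of the same genotype had a median r of 0.8121 and pairs of different genotype 0.8112, so by this median libraries of 1 genotype were no more alike than libraries of both. The sexes were mixed in both groups. Xist was at 43.6 to 105 CPM in KO 1, KO 3, KO 5 and WT 1 and at most 0.43 CPM in KO 2, KO 4 and the library labelled WT 2/3, which had Kdm5d at 14.5 to 48.7 CPM. WT 5 had both Xist (37.9 CPM) and Eif2s3y (6.78 CPM). Markers of the removed cortex were at or near 0: Tbr1 and Emx1 had a count in 1 library each, and Fezf2 in 0. Hoxa5, a hindbrain gene, was at 45.8 to 135 CPM in all 8.

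Celf6 was detected in all 5 KO libraries, at 15.1, 22.5, 17.2, 4.90 and 17.7 CPM in KO 1 to KO 5. In WT it was at 34.0 CPM in WT 1, 15.7 CPM in the library labelled WT 2/3 and 107 CPM in WT 5. The groups overlapped, because the library labelled WT 2/3 lay below 3 of the KO libraries. Its Celf6 level was thus inside the KO range, and whether its label is right was not tested. The means were 15.5 ± 6.51 CPM (SD, n = 5) in KO and 52.2 ± 48.2 CPM (SD, n = 3) in WT. The log2 fold change, KO minus WT, was −1.56 ± 0.66 (edgeR, SE, 95% interval −2.97 to −0.16). The edgeR p was 0.031 unadjusted and 0.9996 adjusted over all genes tested. An exact two-sided permutation test of the difference in mean log2 CPM (−1.45) gave p = 0.143 over 56 splits, of which the smallest possible p is 0.0357. Unlike the edgeR fit, the permutation test took no account of the sequencing run. The difference was −0.35 log2 units in run 1 and −3.46 in run 2. Without WT 5 the edgeR value was −0.44, and without the library labelled WT 2/3 it was −2.18. In TRAP libraries Celf6 was at 50.5 ± 37.5 CPM (SD, n = 5) in KO and 140 ± 39.8 CPM (SD, n = 5) in WT. That was a log2 fold change of −1.52 ± 0.38, with an edgeR p of 0.00076 unadjusted and 0.9992 adjusted over all genes tested. Celf6 lies on chromosome 9 at 59578337–59607292 (mm10, plus strand), and a count here can come from any exon, including exons that a deletion may spare.

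The other CELF genes, which encode proteins with similar RNA-recognition motifs, had 95% intervals that reached to both sides of no change. Celf4 was the most abundant per length, with 149 CPM per kilobase in KO and 144 in WT, against 5.61 and 18.9 CPM per kilobase for Celf6. Celf4 ran from 635 to 944 CPM in KO and from 714 to 877 CPM in WT, and its log2 fold change was 0.06 ± 0.19 (95% interval −0.35 to 0.47). Celf1, whose protein promotes decay of GU-rich transcripts in other cells, had a log2 fold change of −0.24 ± 0.27 (95% interval −0.82 to 0.34). That of Celf2 was −0.17 ± 0.23 (95% interval −0.67 to 0.33). The values were 0.17 ± 0.35 for Celf3 (95% interval −0.58 to 0.92) and −0.16 ± 0.28 for Celf5 (95% interval −0.75 to 0.43). The groups overlapped for all 5 of these genes, and the sign for Celf2, Celf3 and Celf5 was not the same in every reanalysis with a library left out or with a replicate block.

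**Figure D1:**
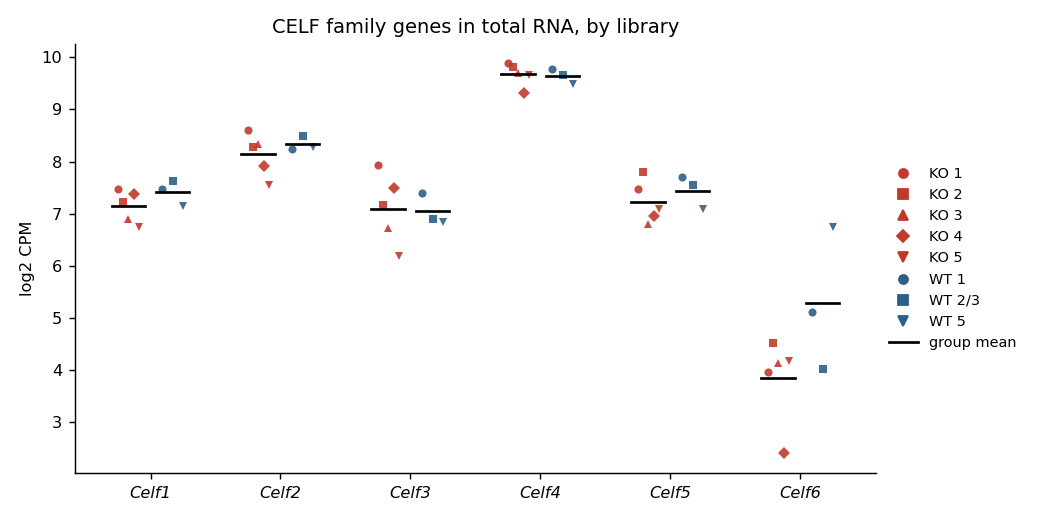
Log2 CPM of the 6 CELF genes in each total RNA library (red KO, blue WT, 1 symbol per replicate, bar for the group mean). The 5 KO values of Celf6 overlap with the library labelled WT 2/3 (15.7 CPM), and WT 5 (107 CPM) stands highest.

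Across all genes no difference passed the test. Of 13036 genes tested, 0 had an edgeR adjusted p under 0.05 (0.0% called), and the lowest adjusted p was 0.9996. An unadjusted p under 0.05 was reached by 376 genes (2.88%). In 169 genes every KO library lay below every WT library (1.3%) and in 125 every KO library lay above (0.959%). The median log2 fold change was 0.02, with quartiles of −0.32 and 0.38, and 51.3% of genes lay above 0. The spread between libraries was wide, with a biological coefficient of variation of 0.636 and a median SE of 0.55 log2 units, or 0.34 for the 4656 genes at 50 CPM or more. The 95% interval lay within a 2-fold change in either direction for 2795 genes (21.4%). The count without the library labelled WT 2/3 was also 0, with 640 genes at an unadjusted p under 0.05. DESeq2 called 4 genes, and limma voom called 0.

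The 4 genes that DESeq2 called were outside the tested set of edgeR and had counts in 1 library each. Gm13546 (9.86 CPM) and Cldn19 (21.9 CPM) were seen in WT 5, Gnb3 (35.0 CPM) in WT 1 and Cxcl10, a chemokine gene, at 32.5 CPM in KO 5. Without the expression filter edgeR called Ptgds, Ttr, Dgkg and Gm765. Dgkg, a diacylglycerol kinase gene, was at 668 CPM in WT 5 and at 24.3 to 93.6 CPM in the other 7 libraries. Gm765 was at 65.0 CPM in KO 1 and at most 1.09 CPM elsewhere. These calls on Dgkg, Gm765 and the DESeq2 genes each rest on the 1 library named.

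The 24 genes with the smallest p, 12 in each direction at a mean of 5 CPM or more, are described here without further test, since their p chose them. Among the 12 higher in KO, 10 had every KO library above every WT library (0.959% of all genes tested; 2.26% did not overlap in either direction). Zfp414, which encodes a zinc finger protein, was at 87.2, 96.0, 103, 84.0 and 129 CPM in KO and at 44.3, 48.4 and 25 CPM in WT 1, the library labelled WT 2/3 and WT 5. Every KO library was above every WT library, with a log2 fold change of 1.38 ± 0.37. BC004004 (chromosome 17, 29268788–29302887, mm10) was at 81.2 to 124 CPM in KO and at 28.2 to 44.1 CPM in WT, also 1.38 ± 0.36, but stood at −0.056 when WT replicate 4 was added.

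Sltm, which encodes a nuclear RNA-binding protein, was at 26.6, 36.2, 70.7, 56.8 and 54.1 CPM in KO and 8.04, 19.1 and 6.47 CPM in WT. Its log2 fold change was 2.13 ± 0.57. Ccnk encodes cyclin K, the partner of the kinases that phosphorylate RNA polymerase II during elongation, and was at 126 to 172 CPM in KO and 49.5 to 99.5 CPM in WT (1.04 ± 0.30). Ccdc115, for an assembly factor of the vacuolar proton pump, was at 31.9 to 63.9 CPM in KO and 10.2 to 16.9 CPM in WT (1.73 ± 0.48). The deubiquitinase gene Usp21 was at 36.4 to 75.7 CPM in KO and 5.36 to 32.5 CPM in WT, with the library labelled WT 2/3 highest of the WT. Commd7 was at 50.7 to 123 CPM against 23.7 to 36.4, and the retinoic acid-binding protein gene Crabp1 at 58.9 to 173 CPM against 25 to 52.5.

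Inpp5d encodes SHIP1, a lipid phosphatase of blood cells and microglia, and was at 41.2 CPM in KO 1, 0.745 to 5.39 CPM in the other KO libraries and 0, 0.515 and 0 CPM in WT. That level is set by KO 1, and a fitted fold change for so few WT counts depends on the prior count, so none is given. Bcl2l11, for the pro-apoptotic protein BIM, stood at 85.8 CPM in KO 1 and at 10.5 to 30.8 CPM in the other KO libraries, overlapping with WT (5.85 to 12.9 CPM). 2310047M10Rik was at 47.4 CPM in KO 3, 17.1 to 23.8 CPM in the other KO libraries and 4.47 to 6.69 CPM in WT. Cit, for citron kinase of dividing cells, overlapped, at 131 to 291 CPM in KO and 91.3 to 140 CPM in WT (0.90 ± 0.30).

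Among the 12 lower in KO, which their p chose, 9 had every KO library below every WT library (1.3% of all genes tested). Ptgds, which encodes the prostaglandin D2 synthase that meninges, choroid plexus and oligodendrocytes make, had the smallest p of this direction after Zfp94. It was at 129, 56.2, 637, 103 and 82.4 CPM in KO 1 to KO 5 and at 892, 572 and 852 CPM in WT 1, the library labelled WT 2/3 and WT 5. Of the KO libraries, 4 were at 129 CPM or less while KO 3 lay inside the WT range. The log2 fold change was −2.11 ± 0.57 (95% interval −3.32 to −0.90, edgeR adjusted p = 0.9996). Without KO 3 it was −3.07 with an edgeR adjusted p of 0.0021, the 1 call of that reanalysis. With the replicate number as a block it was −3.17 (edgeR adjusted p = 3.1e-05). In that block fit KO 3 and KO 4 had no WT sample of their number and so did not bear on the genotype difference. It is therefore no separate support beside the fit without KO 3. With WT 2 and WT 3 kept apart, the block fit called 0 genes. In run 1 Ptgds differed by −2.10 log2 units and in run 2, where WT 5 is the only WT library, by −3.20. In TRAP, Ptgds was at 50.2 ± 47.7 CPM (SD, n = 5) in KO and 240 ± 128 CPM (SD, n = 5) in WT (−2.30 ± 0.60, edgeR adjusted p = 0.9992).

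Zfp94, a zinc finger gene, was at 2.75, 4.47, 0.44, 4.16 and 0.90 CPM in KO against 35.4, 11.2 and 29.9 CPM in WT (−3.30 ± 0.86). Lepre1, for a collagen prolyl hydroxylase, was at 1.20 to 8.20 CPM in KO and 75.6, 13.6 and 9.24 CPM in WT, so that WT 1 set most of its difference. The same held for Ubxn10, at 1.22 to 5.22 CPM in KO against 55.9 CPM in WT 1, 15.4 CPM in the library labelled WT 2/3 and 6.78 CPM in WT 5. Slc16a10, for a transporter of aromatic amino acids, had no count in 4 KO libraries, 2.68 CPM in KO 2, and 47.9, 3.86 and 2.77 CPM in WT. Osr1, a transcription factor gene of mesenchyme, was at 0.69 to 2.10 CPM in KO and 22.3, 6.01 and 12 CPM in WT.

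Ltbp4, whose protein stores latent TGF-beta in the matrix, was at 0 to 5.46 CPM in KO and 16.6 to 41.3 CPM in WT. Rragc, for a Rag GTPase that signals amino acids to mTORC1, was at 43.3 to 92.1 CPM in KO and 101.2 to 171 CPM in WT (−1.09 ± 0.33). Fgd1, an activator gene of the GTPase Cdc42, was at 10.3 to 25.5 CPM against 42.6 to 62.8 (−1.54 ± 0.46), and Prr18 at 20.1 to 43.7 CPM against 45.5 to 137. Cad, for the enzyme that starts pyrimidine synthesis, and Akap1, which anchors protein kinase A at mitochondria, overlapped between groups, Cad at 4.15 to 18.9 CPM against 14.8 to 67.5 and Akap1 at 7.51 to 19.9 CPM against 15.4 to 79.8.

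**Figure D2:**
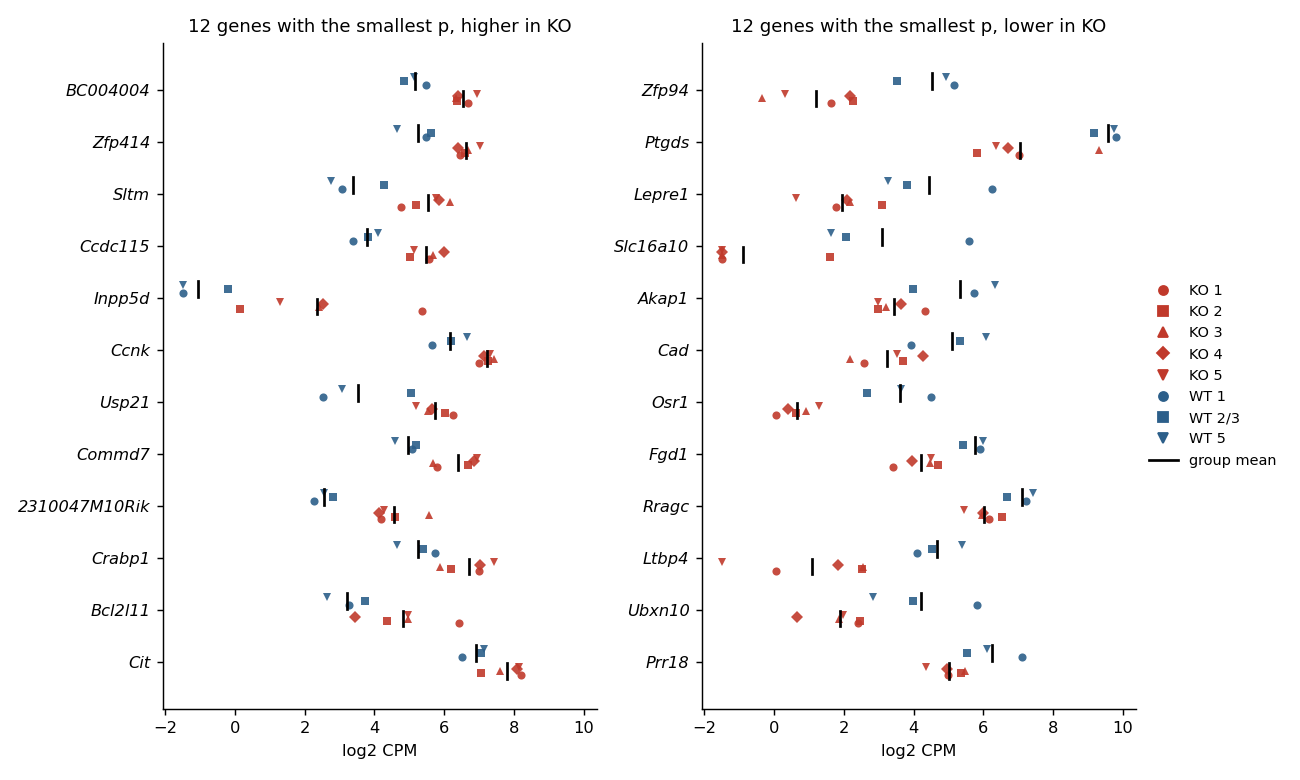
Log2 CPM per total RNA library of the 12 genes with the smallest p in each direction (red KO, blue WT, 1 symbol per replicate, bar for the group mean). KO 1 stands alone for Inpp5d (41.2 CPM) and Bcl2l11 (85.8 CPM), KO 3 for Ptgds (637 CPM), and WT 1 for Lepre1, Slc16a10 and Ubxn10.

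TRAP libraries of the same study gave a look at the same genes in RNA that did not choose them. Of the 12 genes higher in KO total RNA, 3 had a positive log2 fold change in TRAP, with a median of −0.55 over the 12. Of the 11 lower genes tested there, 6 had a negative one, with a median of −0.31, and Osr1 was not tested. The share of all TRAP genes above 0 was not counted, so these signs have no background beside them. No gene of either group passed in TRAP (lowest edgeR adjusted p = 0.9992, 0.0% of 12204 genes called). The difference between the 2 comparisons was tested for each gene, and 0 of 14261 genes passed (0.0%, edgeR, 498 at an unadjusted p under 0.05). The libraries are of the same brains by design, but input and TRAP libraries of 1 replicate number deviated together little (r of −0.04 to 0.09).

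Gene lists were counted next, beside 51.3% of all genes tested above 0 and a median of 0.02. Markers of the cells that TRAP targets, serotonin neurons, lay 7 above and 9 below 0 of 16 tested, with a median log2 fold change of −0.07, and 0 had groups that did not overlap. Tph2, for the enzyme that starts serotonin synthesis in the brain, was at 17.4 to 59.0 CPM in KO and 17.6 to 41.3 CPM in WT (0.17 ± 0.57). The serotonin transporter gene Slc6a4 was at 38.8 to 110 CPM in KO and 51.2 to 84.5 CPM in WT (0.16 ± 0.40). The autoreceptor gene Htr1a (0.64 ± 0.50) and the transcription factor gene Fev (0.67 ± 0.66) were within their spread too.

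Neuron lists of other transmitters showed no common direction. The noradrenaline transporter gene Slc6a2 was at 13 to 36.5 CPM in KO and 30.5 to 70.6 CPM in WT (−1.18 ± 0.47, 95% interval −2.18 to −0.18), whereas Phox2a, a transcription factor gene of the same noradrenergic neurons, was at 1.54 to 17 CPM in KO and 0 to 2.06 CPM in WT. Of 13 GABAergic and glycinergic genes 10 lay below 0 (median −0.09), and of 9 glutamatergic genes 7 did (median −0.23). Slc17a7, the vesicular glutamate transporter of cortex and precerebellar neurons, was at 1.54 CPM in KO 1, 25.2 to 54.4 CPM in the other KO libraries and 62.6, 13.2 and 104 CPM in WT. Of 19 neuropeptide genes 11 lay above 0 (median 0.32), among them Penk, for enkephalin, at 60.1 to 112 CPM in KO and 26.3 to 92.1 CPM in WT (0.74 ± 0.42). Of 23 genes of synaptic vesicle release 16 lay below 0 (median −0.10), and the vesicle protein gene Vamp1 stood on the other side, at 499 to 875 CPM in KO and 354 to 516 CPM in WT (0.59 ± 0.24).

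Glial lists had medians near 0 in the fit over both runs, but the medians differed between runs. In run 1 and run 2 the median log2 differences were 0.21 and −0.51 for oligodendrocyte lineage genes. They were −0.16 and −0.41 for astrocyte genes, and 0.81 and −0.47 for microglial and macrophage genes. WT 5 is the only WT library of run 2. Oligodendrocyte lineage genes lay 9 above and 9 below (median 0.01), and their summed level ran from 6945 to 11930 CPM in KO and from 6533 to 16130 CPM in WT, with WT 5 highest. Opalin, a gene of mature oligodendrocytes, was at 2.57 to 17.4 CPM in KO and 0.92 to 2.32 CPM in WT (2.46 ± 1.06). Of 15 astrocyte genes 8 lay above 0 (median 0.04), with Gfap at 98.2 to 194 CPM in KO and 74.4 to 135 CPM in WT (0.44 ± 0.32). Of 12 microglial and macrophage genes 6 lay above 0 (median 0.09), and P2ry12, a gene of resting microglia, was at 6.01 to 20.6 CPM in KO and 1.25 to 12.4 CPM in WT. The signs of Opalin and Gfap turned with WT replicate 4 added (−0.78 and −0.13).

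Genes of the brain's coverings and choroid plexus had the lowest medians together with a list of midbrain patterning genes. Of 15 meninges and fibroblast genes 11 lay below 0 (median −0.43), and in 1 of them, Slc13a4, every KO library lay below every WT library (1.3% of all genes tested). The summed level of that list was 557.5 to 1152 CPM in KO and 1386 to 1716 CPM in WT. Without Ptgds it was 501.3 to 660.5 CPM in KO and 670.9 to 823.1 CPM in WT, and without Ptgds and Igf2 it was 80.64 to 235.4 CPM against 201.4 to 266.8 CPM. Igf2, a growth factor gene of meninges and choroid plexus, was at 425, 421, 337, 327 and 317 CPM in KO and 598, 612 and 404 CPM in WT (−0.52 ± 0.21, 95% interval −0.96 to −0.07). WT 5 was inside the KO range. Slc13a4, a sulfate transporter gene of the same coverings, was at 0 to 6.33 CPM in KO and 7.30 to 18.8 CPM in WT. Col3a1, a fibroblast collagen gene, was at 1.19 to 15 CPM in KO and 0.43 to 32.7 CPM in WT.

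Of 13 ependymal and choroid plexus genes 10 lay below 0 (median −1.17). In 1 of them, Kl, every KO library lay below every WT library (1.3% of all genes tested). Without WT 1 or WT 5 the median was −0.40 and −0.41. Ttr, the carrier of thyroid hormone that choroid plexus secretes, named here after its values were seen, was at 1755, 626, 12, 2377 and 6.31 CPM in KO 1 to KO 5. In WT it was at 4056 CPM in WT 1, 375 CPM in the library labelled WT 2/3 and 3497 CPM in WT 5. The groups overlapped, the range within KO was wider than the difference between groups (−1.50 ± 1.14), and the 2 lowest libraries were both KO. Without Ttr the summed level of the list was 140.7 to 376.7 CPM in KO and 141.4 to 434.3 CPM in WT. The folate receptor gene Folr1 was at 0 to 5.14 CPM in KO and 15.6, 0 and 15.1 CPM in WT, and Kl, for Klotho, at 0 to 15.9 CPM in KO and 18.2 to 23.4 CPM in WT. In bulk RNA, fewer cells of a type and less RNA per cell cannot be told apart, and whether the amount of choroid plexus or meninges in each dissection bears on these values was not tested.

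**Figure D3:**
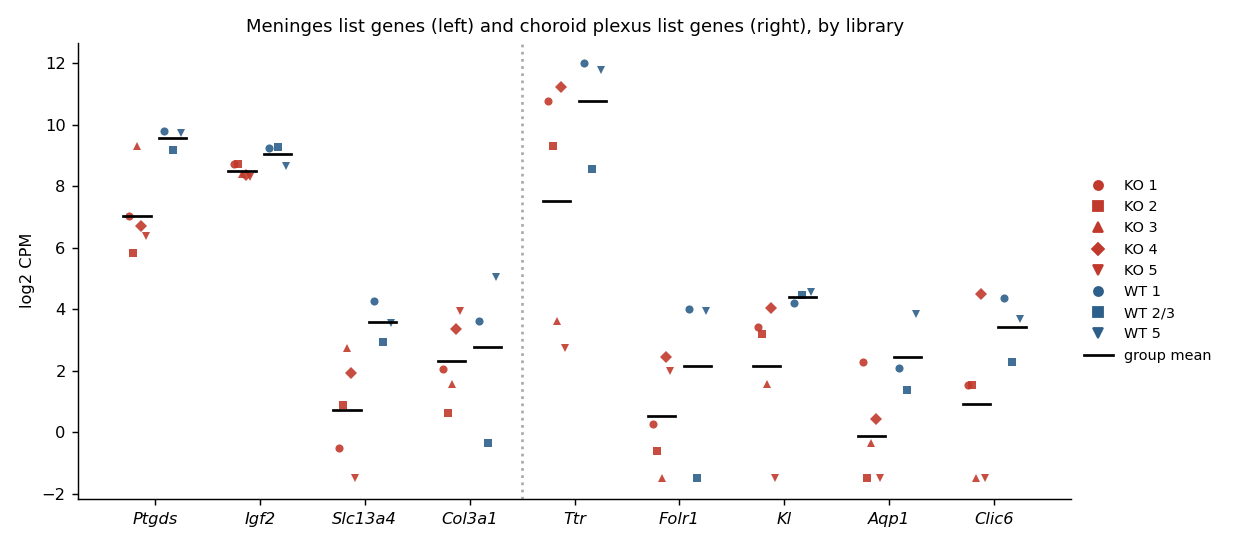
Log2 CPM per total RNA library of genes of the meninges list (left of the dotted line) and the choroid plexus list (right), red KO, blue WT, 1 symbol per replicate, bar for the group mean. Ttr is at 6.31 CPM in KO 5 and 12 CPM in KO 3 and at 375 CPM or more in every other library.

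Regional genes were counted as well, and whether the position of each dissection bears on them was not tested. Of 10 midbrain patterning genes 8 lay below 0 (median −0.62), but the summed levels overlapped, at 76.64 to 140.4 CPM in KO and 110.3 to 207.9 CPM in WT. The direction also differed by run, with a median log2 difference of −0.74 in run 1 and 0.37 in run 2, where WT 5 is the only WT library. Lmx1a was at 0 to 12 CPM in KO and 45.4 CPM in WT 1, 5.41 CPM in the library labelled WT 2/3 and 11.1 CPM in WT 5. Lhx2, a forebrain transcription factor gene, was at 41.7 to 94.2 CPM in KO and 36.6, 34.2 and 7.70 CPM in WT (1.4 ± 0.50, 95% interval 0.34 to 2.47). Tcf7l2, a thalamic and midbrain gene, was at 248 to 590 CPM in KO and 477 to 721 CPM in WT (−0.46 ± 0.25). Of 17 Hox genes 9 lay above 0 (median 0.10), a sign that turned without KO 2 (−0.14).

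Genes for the handling of RNA, the process in which CELF proteins act, were near the median of all genes. Of 33 neuronal RNA-binding and splicing regulator genes 15 lay above and 18 below 0 (median −0.05). Ptbp1, the splicing repressor that neurons switch off, was at 26.4 to 96.8 CPM in KO and 23.4 to 34.1 CPM in WT (0.89 ± 0.47). Elavl1 and Nova2, for other RNA-binding proteins, had log2 fold changes of −0.38 ± 0.29 and −0.28 ± 0.22. Of 36 genes of RNA decay and deadenylation 17 lay above 0 (median −0.10). The exosome gene Exosc5 was at 11.9 to 31.6 CPM in KO and 6.78 to 9.36 CPM in WT (1.12 ± 0.67).

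Large housekeeping groups had medians near that of all genes. Of 85 cytosolic ribosomal protein genes 70 were tested, and 32 of these lay above 0 (median −0.02). Their levels in these counts, which leave out multi-mapping reads, differed widely. Rpl12 had means of 1.86 CPM in KO and 1.93 CPM in WT (SE of the log2 fold change 1.25), and Rpl4 497.5 and 517.6 CPM (SE 0.21). Of 80 nuclear genes of oxidative phosphorylation 48 lay above 0 (median 0.05). The oxidative phosphorylation genes included Cox7a1, a subunit of cytochrome oxidase of muscle and heart, at 1.94 to 11.4 CPM in KO and 0, 1.46 and 0 CPM in WT. Of 25 cell cycle genes 14 lay below 0 (median −0.07), of 12 immediate early genes 7 did (median −0.14), and of 11 interferon and MHC genes 4 did (median 0.13). The unfolded protein and stress response list had a median of 0.25, dopaminergic and noradrenergic neurons 0.24, cholinergic neurons 0.13, cerebellar granule cells 0.05, endothelial and mural cells 0.02, cortex and hippocampus −0.01 and thalamus −0.09. Fosl2, an immediate early gene, was at 13.2 to 65.8 CPM in KO and 35.0, 57.6 and 172 CPM in WT, with WT 5 highest.

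Of the 164 genes tested within 10 Mb of Celf6, 87 lay above and 77 below 0 (median 0.03), and 2 had groups that did not overlap (2.26% of all genes tested). Chrnb4, for a nicotinic receptor subunit, was at 1.37 to 9.17 CPM in KO and 33.8, 3.43 and 65.6 CPM in WT (−2.44 ± 0.79), with the library labelled WT 2/3 inside the KO range. Dlat, of the pyruvate dehydrogenase complex, was at 288 to 474 CPM in KO and 205 to 318 CPM in WT (0.53 ± 0.24).

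Genes whose RNA CELF6 binds were taken from the CLIP (crosslinking and immunoprecipitation) columns of the deposited splicing tables. Of 1170 such genes tested, 592 lay above and 578 below 0 (median 0.01), with quartiles of −0.19 and 0.22. In 16 of them every KO library lay below every WT library (1.3% of all genes tested), and in 12 above (0.959% of all genes). Of the 424 with a site in the 3 prime UTR, the class through which CELF6 is known to lower messenger RNA, 208 lay above 0 (median −0.01), with 9 and 4 genes of non-overlapping groups. Genes of the same tables without a CLIP entry numbered 3198, with 1598 above 0 (median 0.00), and 47 and 25 without overlap. No member of either set passed the test.

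**Figure D4:**
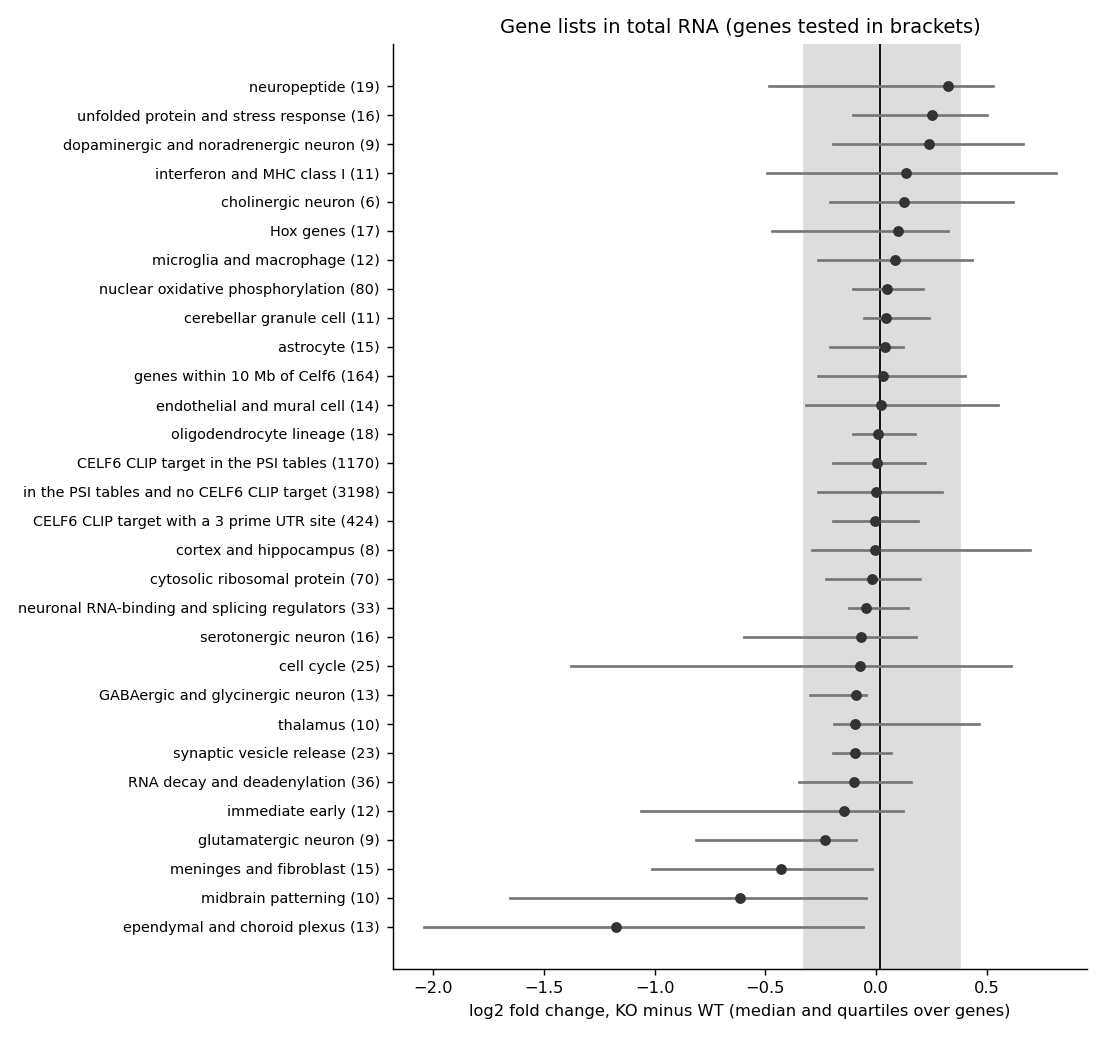
Median log2 fold change (dot) and quartiles (line) over the genes tested of each list, KO minus WT in total RNA, with the median of all genes tested as the vertical line and their quartiles as the grey band. Only the ependymal and choroid plexus (−1.17), midbrain patterning (−0.62) and meninges (−0.43) lists have medians outside the band.

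Splicing was compared through the percent spliced in (PSI, a fraction from 0 to 1) that the authors deposited for each library. Of 8935 splicing events, 1154 had a value in at least 3 KO libraries and in all 3 WT samples. No event passed (0.0% called, limma on log2(PSI/(1−PSI)), lowest adjusted p = 0.96), and 43 reached an unadjusted p under 0.05 (3.73%). Groups did not overlap for 40 events (3.47%), 24 with KO lower (2.08%) and 16 with KO higher (1.39%). The median difference in PSI, regardless of sign, was 0.00817, and it exceeded 0.1 in 20 events. The authors' deposited table, over 1504 events, has a lowest false discovery rate of 0.718.

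By class, the median logit differences were 0.01 for 484 skipped exons, −0.02 for 361 retained introns, 0.01 for 144 alternative 3 prime splice sites, −0.10 for 97 alternative 5 prime splice sites and −0.03 for 68 mutually exclusive exons. Events in genes with a CELF6 CLIP entry did not overlap between genotypes in 2.85% of 527, and events in other genes in 3.99% of 627. A difference between these shares was not tested.

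The 6 splicing events with the smallest p differed by less than 0.1 in mean PSI. In Phb2, for the mitochondrial protein prohibitin 2, the intron of 661 bases on chromosome 6 (124714169–124714829, mm10) had a PSI of 0.00789, 0.0196, 0.0121, 0.00725 and 0.0180 in KO and 0.0627, 0.0525 and 0.0254 in WT. Every KO library was below every WT library (logit difference −1.72 ± 0.39, limma adjusted p = 0.96). In Sh3glb2, for an endophilin, an intron of 413 bases had a PSI of 0.0316 to 0.0641 in KO and 0.00649 to 0.0242 in WT (1.60 ± 0.37). In Uqcrc2, for a core subunit of complex III and with a CLIP entry in an intron, the exon of 166 bases had a PSI of 0.0124 to 0.0313 in KO and 0.0419 to 0.0704 in WT (−1.37 ± 0.33).

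0610037L13Rik held 2 of the 6, which share an exon and so are not independent. Its skipped exon of 87 bases had a PSI of 0.0337 to 0.0718 in 4 KO libraries and 0.0963 to 0.111 in WT, and its intron of 122 bases 0.0345 to 0.0555 against 0.0622 to 0.161. The alternative 3 prime splice site of A730017C20Rik, a gene with a CLIP entry in the 3 prime UTR, had a PSI of 0.0416 to 0.0708 in 3 KO libraries and 0.115 to 0.136 in WT. In TRAP, 2 of the 6 had a difference of the same sign (lowest limma adjusted p = 0.744).

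Tandem UTR events compare a short and a long 3 prime UTR that share their start. The file headers assign PSI = 1 to isoform B, and B was the shorter in all 960 such events by the deposited coordinates. That PSI counts B was not checked in the data, and every statement on the shorter or longer form rests on the headers. Of 242 events tested, 0 passed (0.0%, lowest limma adjusted p = 0.32), 17 had an unadjusted p under 0.05 (7.02%) and 13 had groups that did not overlap (5.37%). In 6 of these KO was lower (2.48%) and in 7 higher (2.89%). In 140 events the logit difference lay below 0, with a median of −0.05. The lowest false discovery rate in the authors' deposited table is 0.205, over 313 events.

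The 5 tandem UTR events with the smallest p were as follows. Mnt, for a transcription factor that opposes MYC, had a PSI of 0.976, 0.985, 0.974, 0.972 and 0.973 in KO and 0.957, 0.945 and 0.947 in WT, with UTRs of 1756 and 2398 bases (1.16 ± 0.22). Eno2, the neuronal enolase gene, had 0.226, 0.218, 0.280, 0.217 and 0.259 in KO and 0.159, 0.105 and 0.153 in WT, with UTRs of 930 and 1239 bases (0.98 ± 0.22). PSI, by the headers the share of the shorter form, was higher in every KO library than in every WT library in both genes, while their TRAP differences had the opposite sign (−1.09 ± 0.49 and −0.75 ± 0.26).

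Marchf6, for a ubiquitin ligase of the endoplasmic reticulum, had 0.115 to 0.227 in KO and 0.0554 to 0.0982 in WT (1.52 ± 0.35), and 0.77 ± 0.49 in TRAP. Tomm40l, for a mitochondrial import channel, had 0.0449 to 0.197 in KO and 0.00686 to 0.0324 in WT. Rab10, a vesicle traffic gene with a CLIP entry in the 3 prime UTR, had the largest PSI difference of the 5, at 0.407, 0.753 and 0.579 in 3 KO libraries and 0.973, 0.922 and 0.941 in WT (logit −3.79 ± 0.79, limma adjusted p = 0.485). Its UTRs are 359 and 2339 bases long, so by the headers the longer form made up a larger share in each of these KO libraries than in any WT sample. Its TRAP difference was 0.41 ± 0.85. Of the 5, only Marchf6 had the same sign in TRAP.

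**Figure D5:**
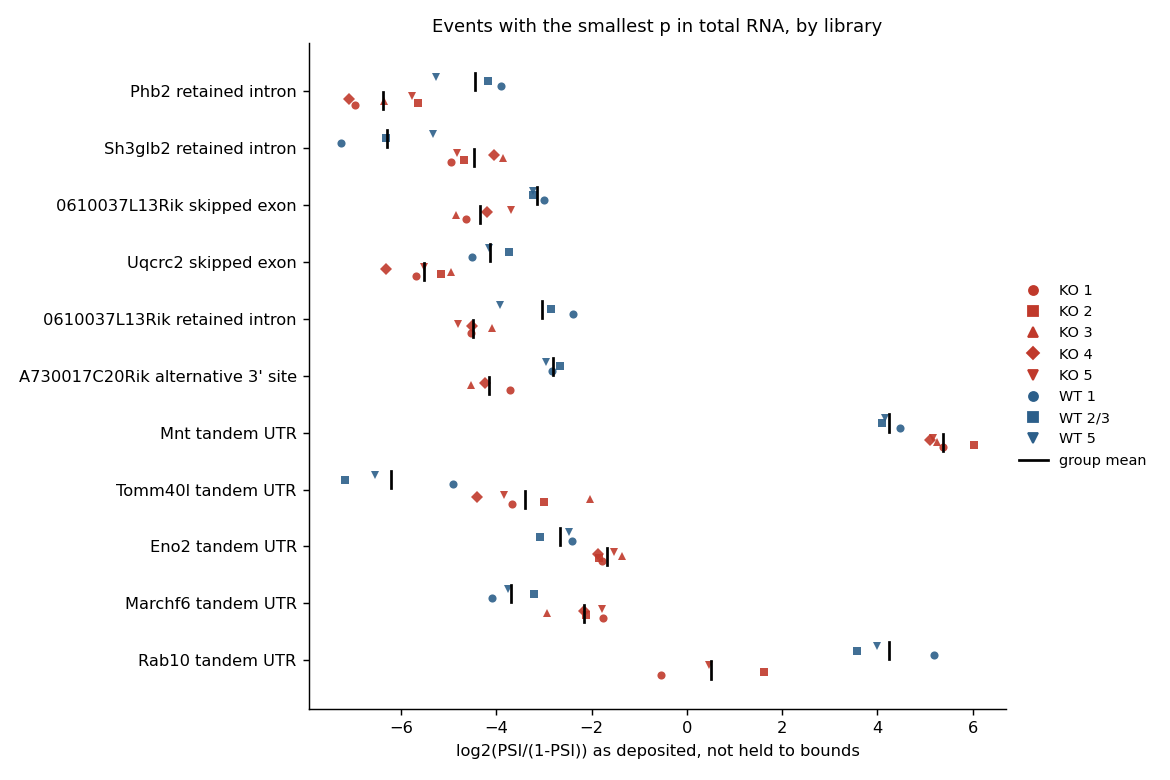
Log2(PSI/(1−PSI)) per total RNA library for the 6 splicing and 5 tandem UTR events with the smallest p (red KO, blue WT, 1 symbol per replicate, bar for the group mean). KO and WT libraries do not overlap in any of the 11, which were chosen by their p, and Rab10 shows the widest gap.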

How the data were processed

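Counts per gene were deposited by the authors as whole-number count files, made per the file headers with featureCounts 1.4.6-p5 on mm10, without strand and without multi-mapping reads. Trimmomatic and STAR are in the submitters' processing notes without versions. RNA was amplified (Nugen Ovation 2) before library preparation, per the labels. PSI is the fraction deposited by the authors from MISO, with values of a credible interval wider than 0.2 removed. P-values and FDR in those tables are the authors' deposited values and were only quoted.

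Genes were tested with edgeR 4.0.16 in R 4.3.3 (filterByExpr, TMM, quasi-likelihood F test, sequencing run as covariate, Benjamini-Hochberg adjustment over all genes tested, threshold 0.05). PSI, held between 0.01 and 0.99, was tested with limma 3.58.1 on log2(PSI/(1−PSI)) with the same covariate. Log2 CPM used a prior count of 2. DESeq2 1.42.0 and limma voom were alternatives. The scripts were tested on simulated data. Genes named are Celf6 and its family, the 12 smallest p in each direction at a mean of 5 CPM, and up to 4 members of each list with the smallest p. Beyond these, Tph2 and Slc6a4, Chrnb4 and Dlat, Ttr, and the genes that alternatives called were chosen after their values were seen. The members and lists were chosen with earlier results of these data known. Replicate numbers did not pair KO with WT libraries (r of deviations −0.07, 0.10 and −0.44). No sequence is printed, since none of the files' build was used here. Some genes that the naming rule takes are not reported here.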

Additional observations from a re-analysis of the deposited data

Results flagged for a closer look

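Among 41 results examined in the 5 KO libraries, 5 had 1 library far from the others. The check marks about 1 in 20 groups by chance, a rate that need not hold here because many of the results were chosen by their small p. Inpp5d was at 41.2 CPM and Bcl2l11 at 85.8 CPM in KO 1. Ptgds was at 637 CPM and 2310047M10Rik at 47.4 CPM in KO 3, and Slc16a10 at 2.68 CPM in KO 2, the 1 KO library where it had a count. The 3 WT samples are too few for this check.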

How the results depend on the processing

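Of 13036 genes 0 passed, and leaving out each library gave 0 to 1 genes. DESeq2 called 4, no expression filter 4, the replicate block 1 (Ptgds), and every other alternative 0. In the block fit that called Ptgds, KO 3 and KO 4 had no WT sample of their number and so did not bear on the genotype difference. The block with WT 2 and WT 3 apart called 0. Why the other settings called genes was not tested. The replicate numbers did not pair the libraries. For input against TRAP, 0 passed, with 1 gene (Preb) without a filter and 0 with the replicate block. PSI tests called 0 events under every alternative, the replicate block included. Signs turned for BC004004 (−0.056), Opalin (−0.78), Gfap (−0.13), Elavl1 (0.014), Cnot8 (−0.20) and Rpl27a (−0.37) with WT replicate 4, of 325072 counts, added. They turned for Celf2 in run 1 alone (0.044), for Celf5 with the replicate block (0.011) and for Col3a1 with the replicate block and WT 2 and WT 3 apart (0.096). With 1 library left out, the log2 fold change ran from −0.30 to 0.039 for Celf2 (above 0 without WT 5), from −0.078 to 0.32 for Celf3 (below 0 without KO 1 or KO 4, −0.054) and from −1.56 to 0.062 for Col3a1 (above 0 without WT 1). The median SE was 0.34 log2 units for genes at 50 CPM or more and 0.78 for those below.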
